A study of Mus musculus with 3 samples.

Results

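The 10 glycolytic enzyme genes Gpi1, Pfkl, Pfkp, Aldoa, Tpi1, Gapdh, Pgk1, Eno1, Pkm and Ldha were examined for cytosines that resist bisulfite in their mRNAs. They were taken by gene symbol, out of 13224 named genes in the tables; the rule uses no measured value, but the set was chosen with earlier results of these data known. The cells were mouse embryonic stem cells of genotype Tet1-/-, Tet2-/-, Tet3-/- on the J1 background, kept on embryonic fibroblast feeders and separated from them by plating before RNA was taken. There were 3 libraries of 1 group and none of another genotype, so no effect of the missing Tet enzymes can be read from these values. Nothing in the labels says whether the libraries came from separate cultures or from 1 clone, so the spread between them may be technical.

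Glycolysis splits glucose into pyruvate in the cytosol. Gpi1 turns glucose 6-phosphate into fructose 6-phosphate, which the phosphofructokinases Pfkl and Pfkp phosphorylate at the committed step, and the aldolase Aldoa cleaves the product. Tpi1 interconverts the triose phosphates, Gapdh oxidises them, Pgk1 and Pkm make ATP, Eno1 makes phosphoenolpyruvate, and Ldha reduces pyruvate to lactate. Pluripotent stem cells are known for a high rate of this pathway.

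Bisulfite converts unmodified cytosine to uracil and leaves 5-methylcytosine and 5-hydroxymethylcytosine as cytosine. The unconverted share of a cytosine is the percentage of its reads that still show cytosine. It cannot tell these modifications from each other or from failed conversion. Coverage is the number of reads over a cytosine. The 3 libraries held summed coverages of 139884444 to 151362866, and their overall unconverted shares, 1.41% to 1.53%, served as the background. All 12 stem cell markers were listed and took 0.555% to 0.587% of the coverage of a library. On average they ran from 2.29e-05% for Esrrb to 0.208% for Dppa5a. Of 12 fibroblast markers 8 were listed, with a summed 0.0523% to 0.0701%, while Postn, Lum, Dcn and Pdgfrb were not. Vim had the most of these, with a mean of 0.0284%. Of 10 early differentiation markers 7 were listed, with a summed 0.0243% to 0.0254%, of which Nes had a mean of 0.0205%. Eomes, Sox17 and Foxa2 were not listed. How reads that fit several transcript models were counted is not stated, so a low or unlisted marker does not show that it was not expressed. The part of other cells in the enzyme values was not tested, and fewer cells of a type and less RNA per cell cannot be told apart in bulk RNA. The labels do not say which exons of the Tet genes are missing, and reads over these genes were not used as a check.

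Nearly all cytosines of the enzyme mRNAs were converted, and 3 of the 2495 that could be tested passed the calling rule, 1 each in Pfkp, Eno1 and Pfkl. Testable means that all 3 libraries had at least 10 reads there. The enzymes had 3091 listed cytosines in 13 transcript models, and 9 enzymes had testable ones; Ldha had none. Over all their reads the unconverted share was 1.51%, 1.47% and 1.36% in replicates 1, 2 and 3, a mean of 1.45% ± 0.0774 (SD, n = 3). All other genes stood at 1.53%, 1.45% and 1.41%, so the enzymes were lower in 2 libraries and higher in 1. No test was run on this, because with 3 pairs the exact sign-flip p is never under 0.25. The median testable cytosine of the enzymes had a mean share of 1.28%, against 1.23% over all genes, and 9.98% showed no unconverted read in any library, against 28.6% of all testable cytosines. The enzymes were read more deeply, with a median coverage of 107 against 30.3 reads over all testable cytosines.

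How far the mRNAs were covered differed between the enzymes, and the cause was not tested. Gpi1, Pgk1 and Tpi1, with 1 model each, had cytosines listed from position 11 to 2685, 39 to 1815 and 108 to 1475 of the transcript. Gapdh, with 2 RefSeq models, was listed only from 148 to 312, and Pkm, with 9, only from 1323 to 1702. Pfkp, with 2, was listed from 1564 to 1835, Aldoa, with 3, from 70 to 308 and Ldha, with 2, from 36 to 184. Other genes with several models had wide spans. Pfkl, with 2, spanned 46 to 3599, and Eno1, with 3, spanned 10 to 1775 with no listed cytosine between 223 and 797. Reads that fit several models, or the processed pseudogenes for which Gapdh is known, cannot be assigned from these tables. How such reads were counted is not stated, and if they were dropped the tables hold only part of the reads of Gapdh, Pkm, Aldoa, Ldha and Pfkp. Low coverage of such a gene therefore does not show low expression, and coverage is not compared as expression between enzymes.

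Mean coverage per listed cytosine, which describes the listed reads only, ran over a wide range. The Pkm model NM_011099.3 had 850, 680 and 722 reads in replicates 1, 2 and 3, and Gapdh (NM_008084.3) had 484, 328 and 396. Eno1 (NM_023119.2) followed with 232, 210 and 235 reads, Pgk1 (NM_008828.3) with 206, 179 and 187, and Gpi1 (NM_008155.4) with 155, 157 and 153. Within each library Eno1 stood above Pgk1. Across libraries, 210 reads for Eno1 and 206 for Pgk1 lay closer than the SD of 14.0 each. These means cover different listed cytosines and are not a comparison of expression. Pfkl (NM_008826.4) had 135, 118 and 127 reads and Tpi1 (NM_009415.2) had 102, 88.7 and 91.7. Each of these models ranked above 93% of the 9395 transcripts with a testable cytosine. The second Pkm model, NM_001253883.1, stood at 77.1, 81.0 and 81.3 reads. The others were lower: the better read Aldoa model, NM_007438.4, had 33.2, 27.0 and 27.3 reads, and the 2 Pfkp models had means of 25.0 ± 5.16 and 20.2 ± 0.267 (SD, n = 3). Ldha (NM_001136069.2) had 8.33, 5.50 and 6.33 reads at 16 listed cytosines.

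The start of some mRNAs could be set beside its letters, since the RefSeq promoter table reaches into the transcript. In the first 50 nt of Gpi1 all 15 listed positions fell on a C of that sequence, and in 1 of the 3 Eno1 starts all 6 did. Over 5 enzymes 4 of 8 starts matched in full. The 1 Pfkl start did not, with 1 of 2 positions on a C. Positions were read as counting from 1, under which these starts match. The 30 bases from transcript position 21 to 50 are shown for the 2 enzymes with testable cytosines there, as measured mRNA whose letters are at hand; capitals mark the testable cytosines (GRCm38.p6, Gpi1 at chr7:34230287-34230316 on the minus strand, Eno1 at chr4:150237217-150237246 on the plus strand).
Gpi1: aagcccgCtgCgCgCaCtggtaCCgaCttg
Eno1: ggaagacagagtgggaggCgCttagtgCtg
Of the reads over listed cytosines in these stretches, 6 of 574 were unconverted in Gpi1 and 4 of 378 in Eno1, counted over the 3 libraries. None of the 8 and 3 testable cytosines was above the background. Their adjusted p in the exact binomial test described next was 1. The letters around the other sites are not used here.

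For each testable cytosine the unconverted reads of a library were set against that library's background (exact binomial test, one-sided). Fisher's combination joined the p-values of the 3 libraries, and the Benjamini-Hochberg adjustment ran over the 1639820 testable cytosines of all genes. The reads are treated as independent and the spread between libraries does not enter. A candidate site had an adjusted p below 0.05, shares higher than the background in all 3 libraries and a mean share of at least 10%. The 3 candidates among the 2495 testable cytosines of the enzymes make 0.120% (exact 95% interval 0.0248% to 0.351%), and 0.0473% of all testable cytosines were candidates. The interval holds the share of all cytosines.

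The strongest site lay in Pfkp, the platelet-type phosphofructokinase, at position 1726 of NM_019703.4. It was unconverted in 7 of 30 reads of replicate 1, 6 of 24 of replicate 2 and 3 of 18 of replicate 3. These are 23.3%, 25.0% and 16.7%, a mean of 21.7% ± 4.41 (SD, n = 3, adjusted p = 5.76e-10, exact binomial test). The exact 95% intervals, 9.93% to 42.3%, 9.77% to 46.7% and 3.58% to 41.4%, overlap widely. The next listed cytosine, at 1727, had 3 of 75 reads unconverted, and coverage on both sides was even, with 71 reads before and 75 after the site. In the other Pfkp model, NM_001291071.1, position 1726 had 0 of 11 reads unconverted. The Pfkp models may differ in sequence at this position number. A count of 0 among 11 reads does not tell a share of this size from the background.

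**Figure D1:**
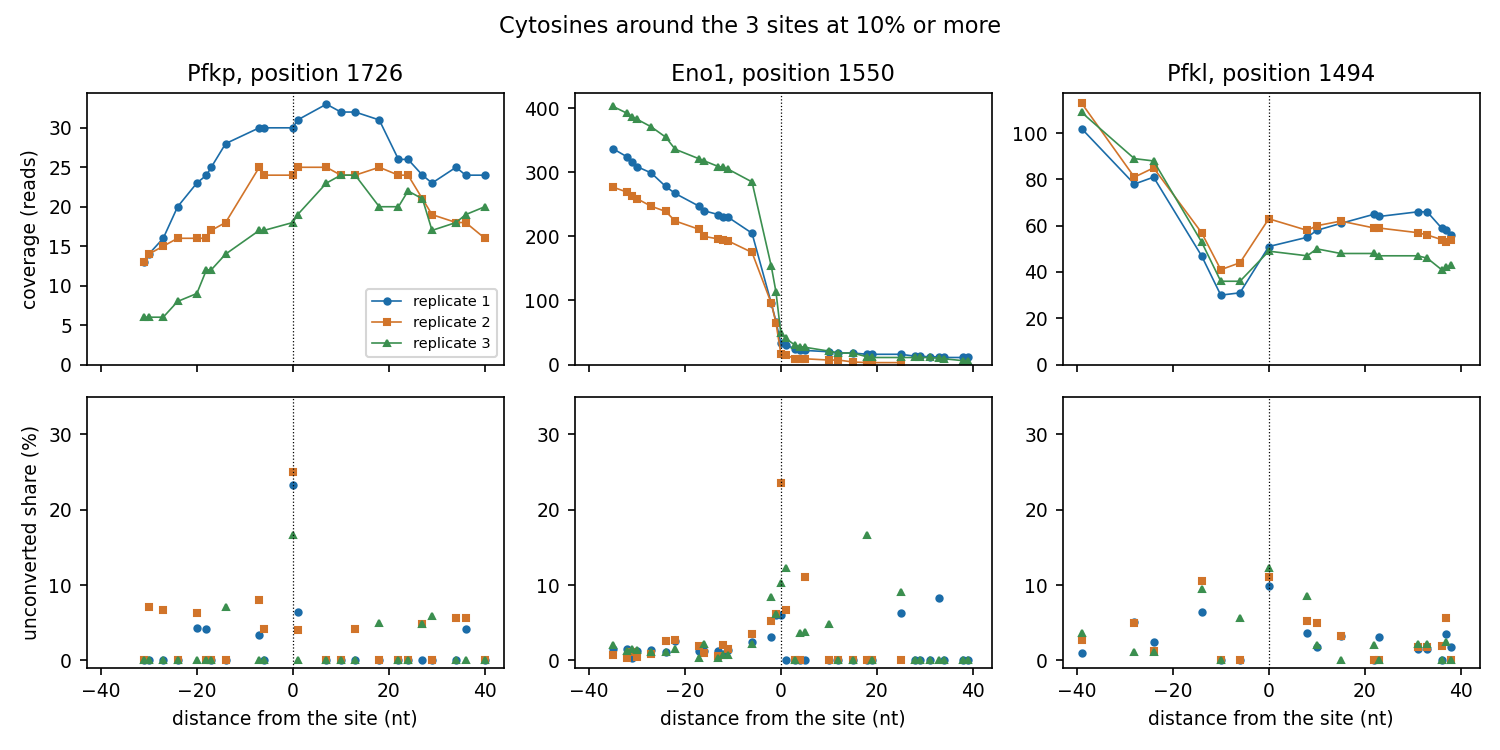
Coverage in reads (upper row) and unconverted share in percent (lower row) of every listed cytosine within 40 nt of the 3 candidate sites, by replicate, against distance from the site in nt. Coverage is even around the Pfkp site, drops steeply at the Eno1 site and dips just before the Pfkl site.

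In Eno1, the enolase, position 1550 was unconverted in 2 of 33, 4 of 17 and 5 of 49 reads of replicates 1, 2 and 3. The shares of 6.06%, 23.5% and 10.2% average 13.3% ± 9.13 (SD, n = 3, adjusted p = 5.01e-04, exact binomial test). The site rested on replicate 2: without it the mean was 8.13% and the adjusted p of the exact binomial test 0.146. The neighbours 1548 and 1549 were also above the background, at 5.59% ± 2.68 and 6.11% ± 0.120 (SD, n = 3). Coverage, summed over the libraries, fell from 665 reads at 1544 to 346 at 1548, 245 at 1549, 99 at 1550 and 86 at 1551. The mean share rose along the 3 adjoining cytosines from 1548 to 1550, over which the coverage fell. At the next cytosine, 1551, it was lower again at 6.29% ± 6.11 (SD, n = 3), with 0%, 6.67% and 12.2%. The part of the fall in coverage in these shares was not tested.

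In Pfkl, the liver-type phosphofructokinase, position 1494 was unconverted in 5 of 51, 7 of 63 and 6 of 49 reads. The shares of 9.80%, 11.1% and 12.2% lay close together, with a mean of 11.1% ± 1.22 (SD, n = 3, adjusted p = 9.31e-07, exact binomial test). It stood just above the minimum of 10%. A second cytosine 14 nt before it, at 1480, stayed just under the minimum with 6.38%, 10.5% and 9.43%, a mean of 8.78% ± 2.15 (SD, n = 3, adjusted p = 5.43e-04, exact binomial test). Between them, positions 1484 and 1488 had 0 of 107 and 2 of 111 reads unconverted. Coverage fell from 254 reads at 1470 to 157 at 1480 and 107 at 1484, and came back to 163 at 1494.

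The 3 calls depended on how the libraries were combined. When each site had to pass on the highest of its 3 p-values, 0 of the 2495 enzyme cytosines were candidates, with 0.00665% of all cytosines called; the beta-binomial test kept all 3 (0.0345% of all), as did the transcript's own share as the background (0.0448% of all), and 3 had a mean share of 10% or more with an unadjusted combined p below 0.05. At a coverage minimum of 20 reads, the Pfkp and Eno1 sites were no longer testable, and Pfkl 1494 was the 1 candidate among 2269, with 0.0487% of all cytosines called. At a level minimum of 20% the 1 candidate was Pfkp 1726 (0.00531% of all cytosines), and at 5% there were 10, or 0.401% of the enzyme cytosines beside 0.203% of all. Leaving out replicate 1, 2 or 3 gave 3, 2 and 3 candidates, with 0.0453%, 0.0428% and 0.0467% of all cytosines called. No enzyme other than Pfkp, Eno1 and Pfkl had a testable cytosine at 10% or above. The highest of Gpi1 had 7.09% ± 4.88 at 1827 (adjusted p = 0.00565, exact binomial test), and the highest of Tpi1, Pkm, Aldoa, Gapdh and Pgk1 lay between 5.39% and 6.52% and did not pass (adjusted p from 0.212 to 1, exact binomial test). At the median testable coverage of an enzyme a count of 0 in 1 library allows a share (3 counts of the total) from 0.787% in Gapdh to 12.0% in Pfkp. All intervals and limits cover counting error only.

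**Figure D2:**
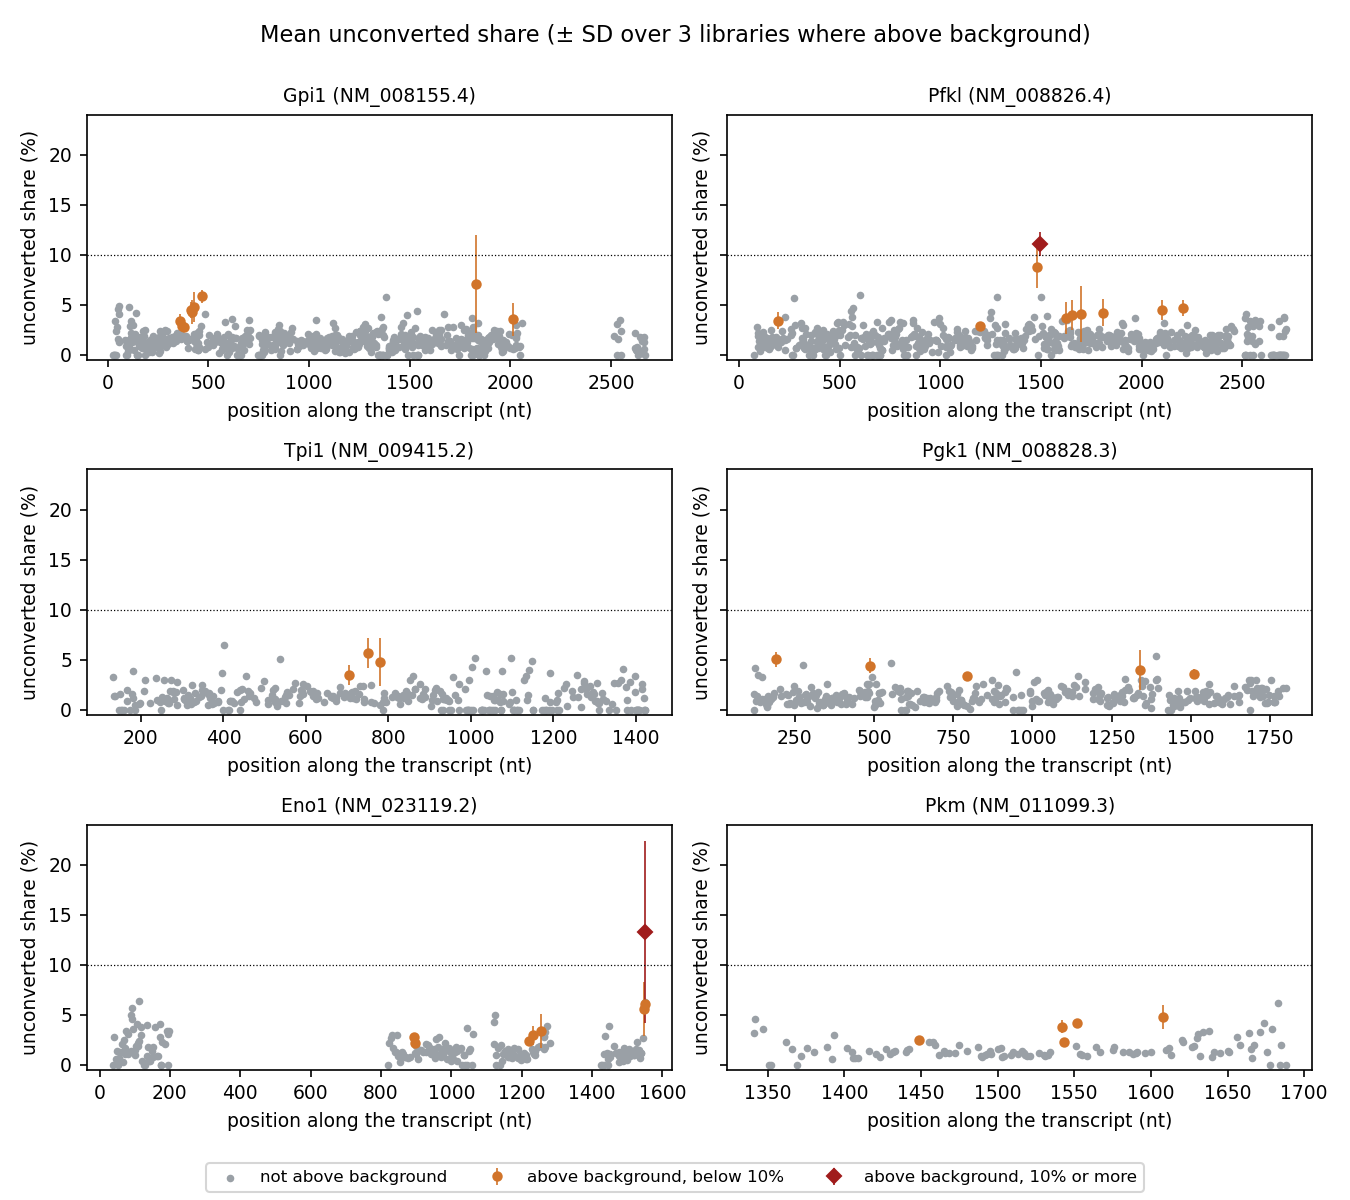
Mean unconverted share in percent of each testable cytosine against its position in nt along the transcript, for the 6 models with the most testable cytosines. Grey points were not above the background, orange points were above it and below 10%, red diamonds were candidates, and error bars are the SD of 3 libraries.

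Low shares above the background were more common than candidates. Without the level minimum, 42 cytosines of the enzymes passed, or 1.68% of those testable, and 0.469% of all testable cytosines did. Pfkl had 10, Gpi1 9, Eno1 8, Pgk1 and Pkm 5 each, Tpi1 3, Gapdh and Pfkp 1 each, and Aldoa 0. Of the 47 testable Aldoa cytosines 2 had an unadjusted combined p below 0.05. The stricter beta-binomial test also called 0, which adds no support. The test reaches lower shares at deeper coverage: at a mean coverage of 100 reads or more, 35 of 1318 enzyme cytosines passed (2.66%), beside 2.33% of all cytosines that deep. At 50 to below 100 reads it was 0.940% beside 0.411%, resting on 5 enzyme cytosines. The shares of the 42 ran from 2.21% to 21.7% with a median of 4.04%, and 10 were at 5% or more. Only 27 of the 42 had an unadjusted p below 0.05 in each library by the exact binomial test. A coverage minimum of 20 reads and the transcript's own background each gave 42 as well, with 0.816% and 0.44% of all cytosines. The beta-binomial test, which allows for more spread than counting error, called 14 of them (0.149% of all cytosines), and the highest of the 3 p-values called 3 (0.0403% of all). With 1 library left out, 24 enzyme cytosines passed without replicate 2, 26 without replicate 3 and 29 without replicate 1, or 0.938%, 1.03% and 1.16% of those testable. Of all cytosines 0.278%, 0.291% and 0.305% then passed, so the calls over all genes fell as well.

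The 3 that passed under each setting tried were in Pkm, the pyruvate kinase that makes the last ATP of the pathway. All lay in the deeper model, NM_011099.3. Position 1542 was unconverted in 92 of 2516, 97 of 2130 and 68 of 2088 reads, or 3.66%, 4.55% and 3.26% (adjusted p = 1.81e-36, exact binomial test). Position 1552 had 4.28%, 3.83% and 4.40% (adjusted p = 4.14e-36), and position 1608 had 4.25%, 3.85% and 6.13% (adjusted p = 1.04e-26), by the same exact test. As the calling rule requires, each library was above its background of 1.41% to 1.53% at each of them. The direct neighbour 1543 had 2.32% ± 0.211, and the neighbour 1551 of position 1552 had 98 of 5475 reads unconverted. Coverage was even around 1542 and 1552, while at 1608 it fell from 3966 reads at 1600 to 2847 at the site and 1678 at 1610.

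Pkm was also the enzyme whose 2 listed models could be set side by side. Pkm is known for a pair of mutually exclusive exons that give the M1 and M2 forms, and the tables do not say which model is which. The models shared 71 listed position numbers, and over these the coverage of NM_001253883.1 was 0.0765, 0.0964 and 0.0873 times that of NM_011099.3. These ratios hold for the listed reads and are not a ratio of the forms in the cell. At position 1552 the minor model had 2.99%, 2.58% and 2.27%, each below the lowest value of the major model. At 1608 it had 2 of 42, 0 of 31 and 2 of 40 reads unconverted, and its shares of 4.76%, 0% and 5% overlapped those of the major model. At 1543 it had 0.860% ± 0.429 (SD, n = 3), below the major model in each library, and at 1542 it had no listed cytosine. The models were read in the same 3 libraries, and the exact sign-flip p of such pairs is never under 0.25. The sequences of the models may differ at a shared position number. None of the 56 testable cytosines of the minor model was above the background, and 2 had an unadjusted combined p below 0.05. The beta-binomial test called 0 as well, but it is stricter and adds no support. At its median testable coverage of 114 reads a count of 0 in 1 library allows a share of up to 2.62%.

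**Figure D3:**
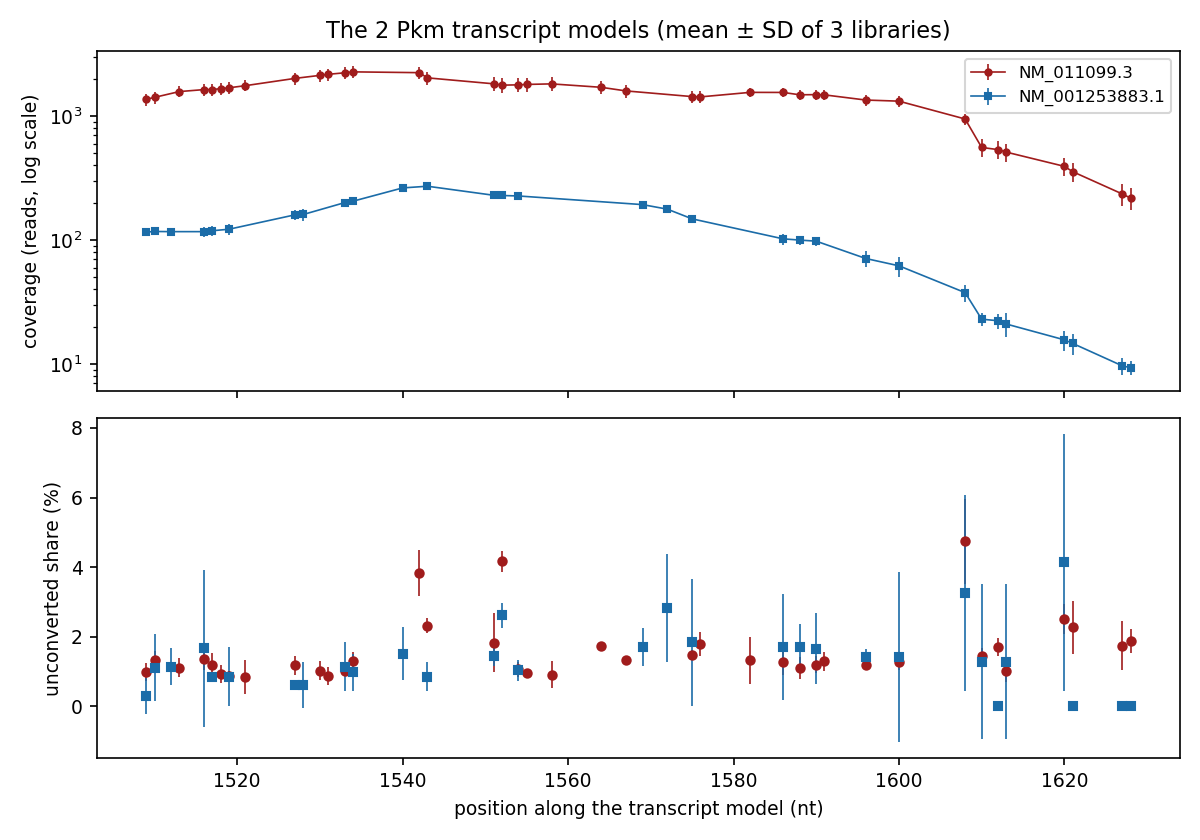
Coverage in reads (log scale, upper panel) and unconverted share in percent (lower panel) of listed cytosines of the 2 Pkm models against position in nt along the model. Points are means and bars SDs of 3 libraries, and positions 1542, 1552 and 1608 of NM_011099.3 stand above their neighbours.

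The other enzymes had sites of the same low level. In Gapdh, position 219 had 2.74%, 4.94% and 4.19% from 2622 reads in all (adjusted p = 2.35e-14, exact binomial test). In Pfkl, position 1806 had 2.70%, 4.66% and 5.32% from 1829 reads (adjusted p = 3.46e-12, same exact test). In Tpi1, position 751 had 6.40%, 6.70% and 3.95% from 574 reads (adjusted p = 6.06e-07, exact test), with 779 at 4.77% ± 2.43 and 704 at 3.48% ± 1.01 (SD, n = 3). As the calling rule requires, these values were each above the library's background in every replicate, so this adds no support. In Pgk1, which makes ATP from the oxidised triose, position 190 had 5.02%, 5.77% and 4.30% and position 1510 had 3.07%, 3.61% and 4.04% (adjusted p = 2.69e-06 and 4.60e-07, exact binomial test). Position 1339 of Pgk1 was less even, with 5.57%, 1.76% and 4.61%. In Eno1, position 893 had 2.42%, 3.08% and 2.82% from 4896 reads (adjusted p = 1.06e-07, exact binomial test). The beta-binomial test called Gapdh 219, Pfkl 1806, Tpi1 751 and Pgk1 190. It did not call Tpi1 704 and 779, Pgk1 1339 and 1510, or Eno1 893.

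In Gpi1, the isomerase at the entry of the pathway, 7 of its 9 sites lay close together between positions 359 and 468. Position 359 had 2.87%, 4.24% and 2.98% (adjusted p = 3.81e-12), position 413 had 3.58%, 5.18% and 4.67% (adjusted p = 1.50e-06) and position 429 had 3.64%, 4.25% and 6.49% (adjusted p = 1.69e-05, exact binomial test for each). The beta-binomial test called 413 and 429 but not 359. Over this stretch the coverage summed over libraries fell from 5831 reads at 351 to 3347 at 359, 993 at 413 and 255 at 468. Cytosines between these sites did not pass, but their shares lay on both sides of the background. Summed over libraries, these shares ran from 0.491% at position 449 to 2.94% at position 465. Position 399 had 9 of 1339 reads unconverted and position 433 had 4 of 664. Position 364, in contrast, had 65 of 3077 (2.11%) and position 456 had 8 of 337 (2.37%). Over the first of 3 equal parts of the listed Gpi1 span the share was 1.82%, 1.75% and 1.44%, above the 1.28%, 1.35% and 1.16% of the last part without overlap. Eno1 showed the same order, with 1.86%, 1.90% and 1.64% against 1.37%, 1.29% and 1.21%. In Pfkl the first part was also higher in each library, at 1.57%, 1.57% and 1.47% against 1.56%, 1.54% and 1.18%, but the ranges overlapped. In Pgk1 and Tpi1 the order of the first and last parts differed between libraries. These parts were set after values were seen and are given as a description.

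Sites above the background tended to lie where coverage fell along the transcript. For 36 of the 42 sites a listed cytosine lay within 10 nt on each side. In 31 of these (86.1%) the coverage was lower after the site than before it, beside 48.2% of the 2245 other enzyme cytosines with such neighbours. In 21 of the 36 (58.3%) the lower of the neighbouring coverages was under 0.8 times the higher, beside 26.2% of the others. Over all genes the same shares were 71.5% and 42.7% of the cytosines above the background, and 46.3% and 25.9% of the rest. At a mean coverage of 100 or more the enzymes had 90.0% and 56.7%, against 47.9% and 22.5% of their other cytosines. Nearby cytosines share reads, so these counts are not independent, and the part of uneven coverage in the shares was not tested; this comparison was chosen after values were seen. Pkm 1542, Pkm 1552 and Pfkp 1726 had ratios of 0.895, 0.981 and 0.947, and the coverage at the site itself lay near that of its neighbours. Pfkl 1806 had a ratio of 0.943, but coverage was highest at the site, with 1526 reads before, 1829 at and 1439 after it. A further cytosine directly followed the site at 23.8% of the 42, and at 28.6% of the other testable enzyme cytosines. Of the 42 sites, 13 had another such site within 10 nt.

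**Figure D4:**
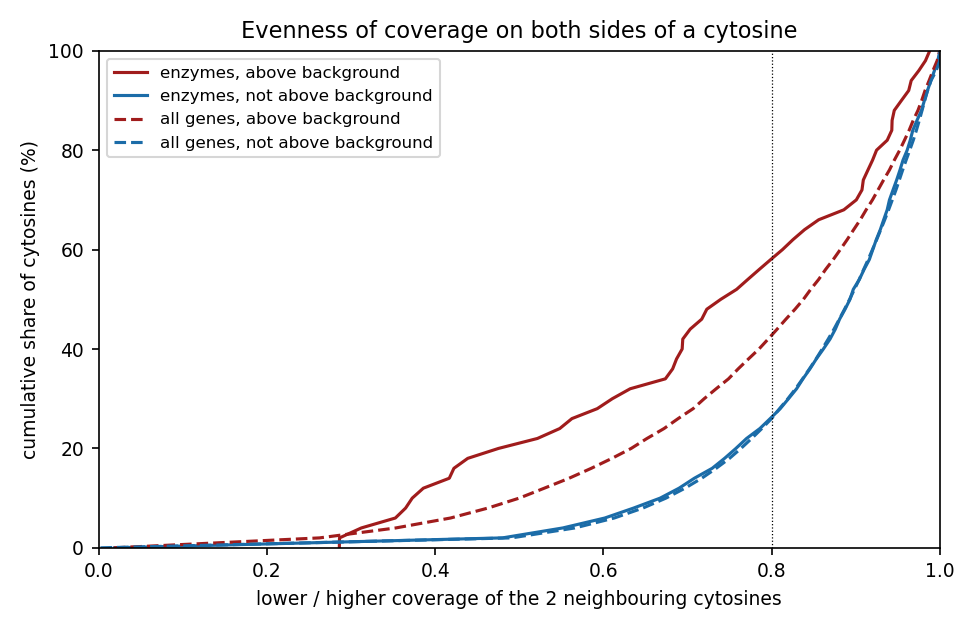
Cumulative percentage of testable cytosines against the lower divided by the higher coverage of the neighbouring listed cytosines within 10 nt, for cytosines above the background (red) and not above it (blue), in the enzymes (solid) and all genes (dashed). At the dotted line of 0.8, 58.3% of the enzyme sites above the background lie to the left, beside 26.2% of the other enzyme cytosines.

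As whole mRNAs the enzymes differed little. Gapdh had 1.33%, 1.35% and 1.31% in replicates 1, 2 and 3, and Eno1 1.38%, 1.43% and 1.28%. Pgk1 had 1.47%, 1.38% and 1.33%, Pkm 1.53%, 1.46% and 1.38%, and Gpi1 1.56%, 1.53% and 1.36%. Pfkl and Tpi1 averaged 1.50% ± 0.0642 and 1.50% ± 0.112 (SD, n = 3). The less read Pfkp and Aldoa scattered more, at 1.63% ± 0.378 and 1.67% ± 0.166, and Ldha had 0.8%, 0% and 0% from 16 cytosines. Apart from Ldha, the ranges of enzymes next to each other in the order of mean share overlapped. Within each library, however, Pgk1 was below Pkm. Gapdh, Eno1 and Pgk1 were below the whole-library share in each of the 3 libraries. Of the enzymes with testable cytosines, Pgk1 had the smallest part without any unconverted read, 3.34%, and Pfkp the largest, 35.6%, at median coverages of 173 and 25.0 reads.

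**Figure D5:**
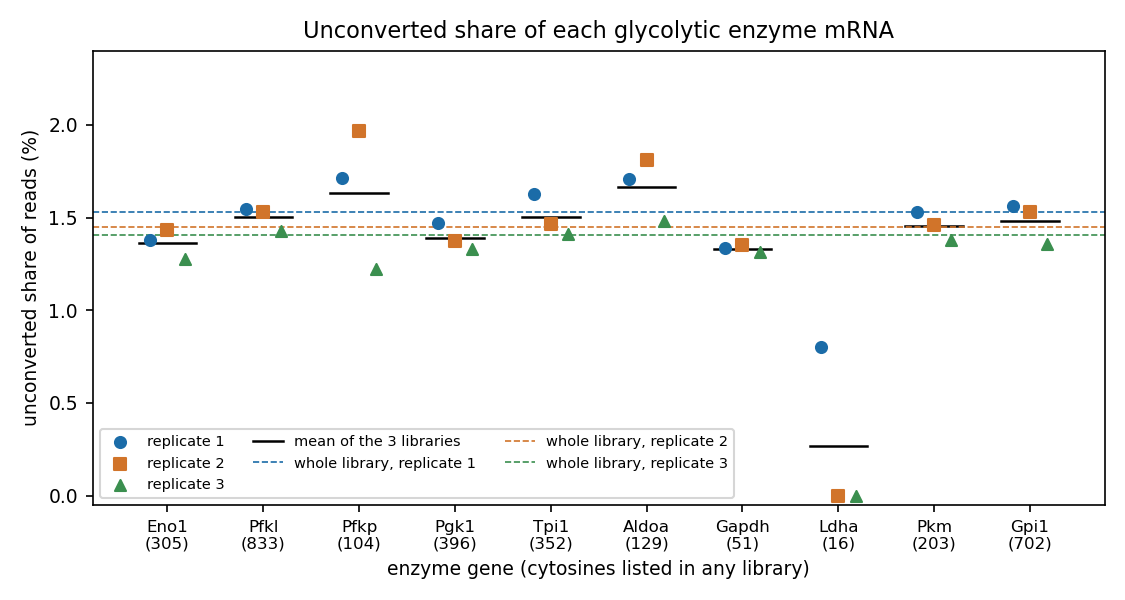
Unconverted share in percent of all reads over listed cytosines for each enzyme gene, by replicate, with the mean of 3 libraries as a black line and each whole library as a dashed line. Outside Pfkp, Aldoa and Ldha, the 7 enzymes lie between 1.28% and 1.63%.

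Agreement between the libraries was weak over all enzyme cytosines and closer over the deeply read ones. Across the 2495 testable cytosines Pearson's r ranged from 0.200 to 0.224 over the library pairs, with Spearman's rho from 0.171 to 0.194. Across the 1204 with a coverage of 100 or more in each library, r was 0.327 to 0.399. These are descriptions across cytosines, which share libraries and reads.

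Of 36 other genes of glycolysis, glucose and lactate transport and pyruvate use, 30 were listed and 22 had testable cytosines. Their 5646 testable cytosines held 0 candidates, which allows a share of up to 0.0653% (exact 95% interval), beside the 0.0473% of all cytosines. The beta-binomial test also gave 0, but it is stricter than the exact test, so its 0 adds no support. Unadjusted, 241 had a combined p below 0.05, of which 2 at 10% or more. These were Bpgm 226 and Hif1a 387, named after their values were seen, at 10.8% ± 10.1 and 11.8% ± 10.3 (SD, n = 3, adjusted p = 0.647 and 0.0537, exact binomial test). Leaving out a library gave 1 candidate without replicate 1 and 2 without replicate 3, or 0.0174% and 0.0339% of the testable cytosines, under the shares of all cytosines given above. Without a level minimum 40 passed, or 0.708%, beside 0.469% of all cytosines.

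Among the 4 of these genes with the largest coverage, Slc2a3, a glucose transporter, had 14 among 808 testable cytosines, Pgam1, the phosphoglycerate mutase, 12 among 435, Hk2, which phosphorylates glucose, 5 among 960, and Slc2a1, another glucose transporter, 1 among 609. Position 1057 of Slc2a3 reached 5.80% ± 0.696 and had the lowest adjusted p of the list (8.08e-64, exact binomial test), and position 1823 of Pgam1, named after its value was seen, reached 7.82% ± 1.51 (SD, n = 3). At this Pgam1 site 403 reads were summed over the libraries, with only 3 at the next listed cytosine 5 nt on. The listed cytosine before it lay 23 nt away. The part of this fall in coverage in the share was not tested. The unconverted shares of Hk2, Pgam1, Slc2a1 and Slc2a3 were 1.49% ± 0.0624, 1.48% ± 0.108, 1.40% ± 0.0991 and 1.47% ± 0.0377 (SD, n = 3). They lay among those of the enzymes described above.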

How the data were processed

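Bisulfite-treated poly(A) RNA of 3 libraries was read as paired ends, per the labels' protocols. BSMAP and the build mm9 are named in the submitters' processing notes. No version, counting step or annotation is stated there. Per the file headers, the authors deposited for each cytosine of a RefSeq transcript its position, its coverage as a raw read count and its unconverted ratio as a fraction of that coverage. No coverage below 3 was listed. The fraction times coverage was whole within 1e-06 at 100% of cytosines and was taken as the unconverted reads. No 2 libraries held identical values. The labels' protocols name no molecular identifiers.

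Transcripts were named by accession without version from a RefSeq table of GRCm38.p6, used otherwise only for the transcript starts shown. Because mm9 transcripts and genome were not at hand, exon, coding and untranslated positions are not used here.

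The test, its coverage minimum of 10, level minimum of 10% and Benjamini-Hochberg adjustment over all testable cytosines of all genes are given with the results (Python 3.11.15, scipy 1.17.1). They were also run on simulated data. There, reads were drawn independently at each library's background, and all planted sites lay above the level minimum. The simulation therefore does not test sites of lower share or reads with more spread than counting error. Alternatives were a coverage minimum of 20, level minimums of 5% and 20%, the transcript's own background, a beta-binomial test, the highest of the 3 p-values, and each library left out. The members, the gene lists and the tests were chosen with earlier results of these data known, although the rule for members uses symbols only. Named were all candidates, the highest cytosine and up to 3 sites of lowest adjusted p per enzyme, and candidate-bearing or else the 4 most covered other genes.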

Additional observations from a re-analysis of the deposited data

How the results depend on the processing

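The 3 candidates of the enzymes became 1 at a coverage minimum of 20 reads, 0 with the highest of the 3 p-values, 1 at a level minimum of 20% and 10 at 5% (0.00531% and 0.203% of all cytosines), and numbered 2 to 3 with 1 library left out. The 42 sites above the background at any level became 14 in the beta-binomial test and 3 with the highest of the 3 p-values, and 24 to 29 with 1 library left out. A coverage minimum of 20 reads or the transcript's own background also gave 42, of which 40 and 41 were the same cytosines. In the other glycolysis-related genes the 0 candidates became 11 at a level minimum of 5% (0.195% of theirs, beside 0.203% of all) and 0 to 2 with 1 library left out. With the highest of the 3 p-values, the sites Pfkp 1726 (21.7%), Eno1 1550 (13.3%) and Pfkl 1494 (11.1%) kept their levels. Their adjusted p in the exact binomial test was then 1, since only the highest p enters the adjustment over all testable cytosines. Unadjusted, each library of Pfkp 1726 and Pfkl 1494 was below 0.05, while replicate 1 of Eno1 1550 had 0.0908 (exact binomial test). With 1 library left out the levels of Pfkp 1726, Eno1 1550 and Pfkl 1494 ran from 20.0% to 24.2%, 8.13% to 16.9% and 10.5% to 11.7%. Eno1 1550 lost its call without replicate 2. The share of the enzymes was 1.36% with each enzyme weighted equally, in place of 1.45%, which gives Ldha with 16 cytosines the weight of Pfkl. Of the values recomputed under all these settings, 37 were counted as the same, 12 as moved and 4 as having lost their call. Being counted as the same is a loose label. It includes 29 sites in place of 42 without replicate 1, and 2 candidates in place of 3 without replicate 2. The Pfkp and Eno1 sites could not be tested at a coverage minimum of 20 reads. No paired analysis was possible because there is no second group of libraries; values set side by side within the same libraries are given per library, without a test. Depth limits the Pfkp, Aldoa and Ldha values most, since their testable or listed cytosines had the fewest reads.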
